A study of Mus musculus with 12 samples.

Results

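The genes described are the 5 subunits of the transcription factor NF-kB (Nfkb1, Nfkb2, Rel, Rela and Relb) and 5 genes of the kinases that switch it on (Chuk, Ikbkb, Ikbkg, Ikbke and Tbk1). They were chosen by name, as all probes that the array annotation assigns to these 10 genes: 20 of the 56605 probes on the array, 9 for the subunits and 11 for the kinases. Gene expression was measured in bone marrow‐derived dendritic cells (DCs) on 12 single-colour Agilent mouse arrays, 3 for each of 4 groups. All cells came from female C57BL/6 mice, were grown with GM‐CSF and IL‐4, and were matured with 1 µg/mL lipopolysaccharide (LPS) for 24 h, and no unstimulated cells were analysed here. Young DCs came from untreated mice of 2 months, and Young-Abx DCs from mice of 2 months given an antibiotic cocktail (ampicillin, neomycin, metronidazole and vancomycin, per the methods). Old DCs came from untreated mice of 24 months, and Old-LP DCs from mice of 24 months given Lactobacillus plantarum (LP) by mouth, a bacterium of fermented food and the gut. The figure legends of the study describe each data set as a pool of 3 mice. Since the labels tie no array to particular animals, p-values measure the spread between these arrays, which may be technical. The cells are whole cultures, so fewer cells of a type and less RNA per cell cannot be told apart.

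NF-kB proteins wait in the cytoplasm bound to inhibitors of the IkB family. When LPS engages Toll-like receptor 4, a kinase complex made of IKKα (Chuk), IKKβ (Ikbkb) and the scaffold NEMO (Ikbkg) marks the inhibitors for destruction, and dimers of p65 and p50 enter the nucleus and turn on inflammatory genes. A slower, non-canonical arm runs through IKKα alone and releases dimers of RelB and p52, which matter for DC maturation, while the related kinases TBK1 and IKKε drive the interferon response. Much of this control lies in phosphorylation and protein breakdown, which mRNA arrays do not measure. The question here was whether the mRNA of these components differed with age, with antibiotics, or with LP given to old mice.

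None of the 10 genes passed the test in any comparison. In Old against Young DCs, 0 of 20 probes were called, where called means that limma gave an adjusted p (Benjamini‐Hochberg, over all probes) of 0.05 or less and a log2 fold change of 0.5 or more in size, against 0.62% of all probes. In Young-Abx against Young DCs, 0 of 20 were called against 0.344% of all probes, and in Old-LP against Old DCs, 0 of 20 against 0.348%. In Old-LP against Young DCs, 0 of 20 were called, as were 0% of all probes. The remaining pairs gave 0 of 20 as well, with 0.163% of all probes called in Old-LP against Young-Abx DCs and 0.00177% in Old against Young-Abx DCs. At an unadjusted limma p of at most 0.05, 0 of 20 passed in each of the 6 comparisons, where 6.05%, 3.9%, 5.87% and 1.13% of all probes did in the first 4. With calls this rare, 20 probes would hold few calls at the rate of the array, so the 0 is not a result particular to these genes.

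At the brightest probe of each gene, log2 fold changes over all 12 arrays lay between -0.38 and 0.38 in Old against Young DCs and between -0.35 and 0.50 in Young-Abx against Young DCs. They lay between -0.38 and 0.66 in Old-LP against Old DCs and between -0.14 and 0.39 in Old-LP against Young DCs. The median over the 10 genes was 0.01, 0.00, 0.06 and 0.06 in these comparisons, beside 0.01, -0.02, -0.01 and 0.00 over all probes. These values do not show that the genes were equal between groups, because the intervals were wide. The 95% confidence interval reached a 2-fold difference (a log2 value of 1 or -1) for 5, 7, 6 and 4 of the 10 genes.

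The third array of each group stood apart. The A and B arrays of all groups were on 1 slide and had 61.2% to 66.4% of spots well above background, with a 75th percentile of intensity of 670 to 1190. The C arrays were on other slides, Young and Young-Abx together and Old and Old-LP together, and had 37.3% to 46% of spots well above background and a 75th percentile of 87.8 to 249. For the C arrays, slide and age therefore cannot be told apart. Values below are therefore given over all 12 arrays, on the A and B arrays of the first slide alone, or between C arrays on the same slide, as stated with each.

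DC markers were present throughout, with 10 of 10 well above background on every Young, Young-Abx and Old array and 9 of 10 on every Old-LP array. Sums of markers of several other cell types differed between groups. The summed normalized intensity of 9 megakaryocyte and erythroid markers ranged from 56200 to 74700 in Young, 84700 to 118000 in Young-Abx, 80400 to 120000 in Old and 60600 to 80600 in Old-LP DCs, with 6 of 9 well above background on every array of each group and Hbb-b1 on none. Of these 9 genes, 6 were above 0 and 3 below in both Old and Young-Abx against Young DCs (median log2 fold change 1.04 and 1.26). Hba-a1 was among those below (-0.49 in Old against Young DCs). Gp9 alone was called, in Old (2.36) and in Young-Abx DCs (2.27, both log2 against Young). The sum of 10 granulocyte markers was 20200 to 22700 in Young, 12200 to 17700 in Young-Abx, 8350 to 55700 in Old and 24700 to 36600 in Old-LP DCs. Within it 7 of 10 genes were below 0 in Old against Young DCs (median log2 fold change -0.56) and 8 of 10 in Young-Abx against Young DCs (median -0.58), while Camp alone was called, upward, in both (2.71 and 2.47). The sum of 5 T cell markers was 8910 to 10200 in Young, 7380 to 11200 in Young-Abx, 3560 to 5910 in Old and 7760 to 8920 in Old-LP DCs, so that Old DCs lay below the other groups, with none of the 5 called over all arrays. The sum of 5 B cell markers was 5870 to 6430 in Young, 3670 to 5110 in Young-Abx, 3100 to 16600 in Old and 5870 to 7000 in Old-LP DCs. The part of these cells in the values below was not tested.

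**Figure D1:**
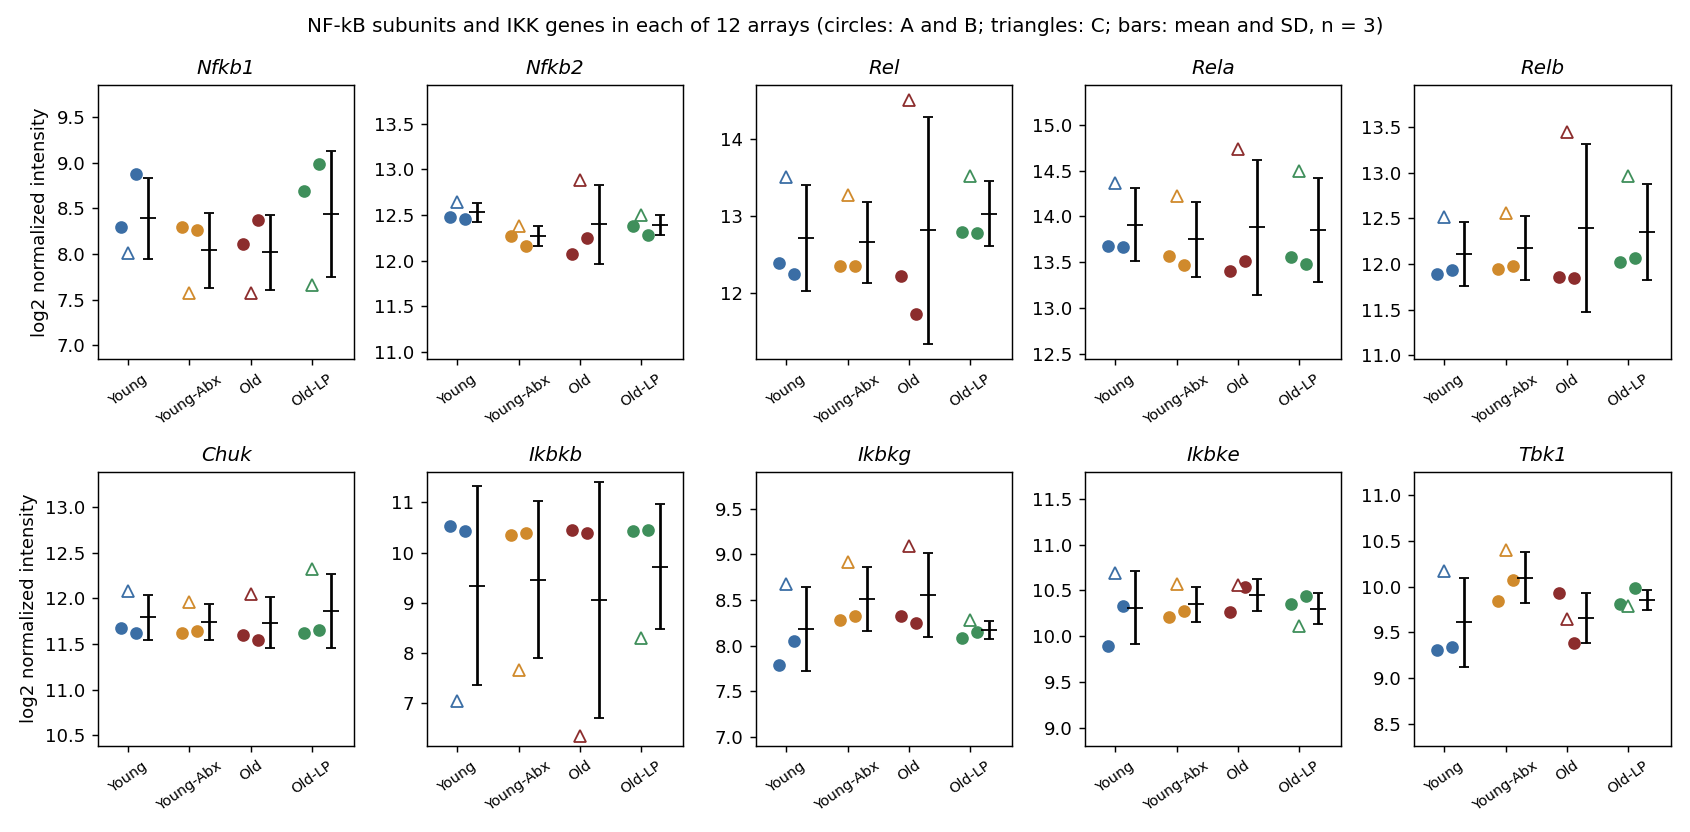
Log2 normalized intensity (vertical axis, its position set per gene) at the brightest probe of each gene in the 4 groups, with circles for the A and B arrays, triangles for the C array and black bars for the mean and SD of 3 arrays. Among the 4 comparisons described, Nfkb2 in Young and Young-Abx DCs is the only case without overlap, and the C array stands apart from A and B most for Ikbkb and Rel.

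Rela encodes p65, the subunit with the strongest activating domain in the canonical dimer. Its brightest probe (A_55_P1974288) gave log2 intensities of 13.68, 13.67 and 14.37 in Young DCs and 13.57, 13.47 and 14.22 in Young-Abx DCs (arrays A, B and C). The values were 13.40, 13.51 and 14.74 in Old DCs and 13.56, 13.48 and 14.50 in Old-LP DCs. All 4 groups overlapped, and in each the C array was the highest. The group means differed by no more than 0.16, with SDs of 0.40 to 0.74. Old DCs differed from Young DCs by -0.02 on the log2 scale (95% CI -0.99 to 0.94, adjusted p = 1, limma). On the first slide alone the difference was -0.22 (-0.45 to 0.01). That interval uses the spread of all arrays on the slide, which may be technical. It leaves out a 2-fold change of Rela for those arrays only. For Young-Abx against Young DCs the first slide gave -0.15 (-0.39 to 0.08), and for Old-LP against Old DCs 0.07 (-0.16 to 0.30). The C arrays gave -0.15 and -0.24 for these pairs. A much dimmer probe of Rela (A_55_P2744639), well above background on 2 of 3 arrays in each group, gave -0.62 in Young-Abx against Young DCs (95% CI -1.54 to 0.31) and -0.66 on the first slide.

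Nfkb1 encodes p105, the precursor of p50. It had a single probe (A_55_P1968743), at 8.30, 8.88 and 8.01 in Young DCs, 8.29, 8.26 and 7.57 in Young-Abx DCs, 8.11, 8.37 and 7.57 in Old DCs and 8.69, 8.98 and 7.66 in Old-LP DCs. Nfkb1 was lowest on the C array in every group, unlike the other subunits at their brightest probes. The dimmer Rela probe was also lowest on the C array in every group. The mean log2 difference of Nfkb1 was -0.38 ± 0.40 (SE) in Old against Young DCs, -0.35 ± 0.40 in Young-Abx against Young DCs and 0.43 ± 0.40 in Old-LP against Old DCs. These values were -0.35, -0.31 and 0.60 on the first slide, the last with an unadjusted p of 0.0366 and an adjusted p of 0.195 (limma). The C arrays of Old-LP and Old DCs differed by 0.09.

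Nfkb2 encodes p100, which holds RelB in the cytoplasm until it is trimmed to p52. Its brightest probe (A_55_P2723699) was at 12.48, 12.46 and 12.64 in Young DCs and at 12.27, 12.16 and 12.38 in Young-Abx DCs. All 3 Young-Abx arrays lay below all 3 Young arrays, with a log2 difference of -0.26 ± 0.24 (SE) in the means (adjusted p = 1, limma), the same -0.26 on the first slide and -0.26 between the C arrays. This was the only 1 of the 20 probes whose groups did not overlap in that comparison, against 9.87% of all probes, and the exact permutation test for 3 against 3 arrays cannot go below p = 0.1. None of the 20 separated the groups in Old against Young (9.66% of all probes), Old-LP against Old (9.38%) or Old-LP against Young DCs (4.72%). The other Nfkb2 probe gave -0.30 in Young-Abx against Young DCs, with overlapping groups. In Old DCs the brightest probe was at 12.07, 12.25 and 12.88, and in Old-LP DCs at 12.38, 12.28 and 12.50. The 2 Old arrays of the first slide were below both Young arrays there (-0.31, 95% CI -0.57 to -0.04, adjusted p = 0.161, limma). The Old C array was above the Young C array, which was on another slide.

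Rel encodes c-Rel, a subunit largely restricted to blood cells that DCs use to make IL-12. Its brightest probe (A_55_P2401403) was at 12.40, 12.25 and 13.51 in Young DCs, 12.36, 12.35 and 13.27 in Young-Abx DCs, 12.23, 11.73 and 14.50 in Old DCs and 12.79, 12.78 and 13.52 in Old-LP DCs. The Old group held both the lowest and the highest of the 12 values. Over all arrays Old-LP DCs differed from Old DCs by 0.21 (95% CI -1.26 to 1.69, adjusted p = 1, limma). With the first slide alone, Rel was higher in Old-LP DCs by 0.81 (0.38 to 1.23, adjusted p = 0.0449), the only 1 of the 20 probes called there, against 8.24% of all probes. The C arrays of the same groups gave the opposite sign, -0.98. The other Rel probe (A_55_P2723629) followed, with 0.41 on the first slide (adjusted p = 0.0756) and -0.83 between the C arrays. Between Old and Young DCs, Rel was -0.35 on the first slide (-0.77 to 0.08) and 0.10 over all arrays.

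Relb encodes the partner of p52. Its brightest probe (A_51_P389751) was at 11.89, 11.93 and 12.51 in Young DCs, 11.95, 11.98 and 12.56 in Young-Abx DCs, 11.86, 11.85 and 13.45 in Old DCs and 12.02, 12.07 and 12.96 in Old-LP DCs. The 8 arrays of the first slide spanned 11.85 to 12.07, the narrowest range of the 5 subunits. Differences on the first slide were -0.06 in Old against Young, 0.05 in Young-Abx against Young and 0.19 in Old-LP against Old DCs, the last with a 95% CI of -0.02 to 0.39. The C arrays of Old-LP and Old DCs differed by -0.50, again opposite in sign to the first slide. Its other probe gave 0.35 on the first slide in Old-LP against Old DCs (0.05 to 0.66, adjusted p = 0.174, limma) and -0.77 between the C arrays.

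Genes of several subunits are known targets of NF-kB itself, so promoter windows of 300 bases, from 250 before to 50 after the transcript start, were searched for the consensus kB motif of 10 bases on both strands, with overlapping matches counted once. The RefSeq table (GRCm38.p6) gave 12 windows for 7 of the 10 genes, and Nfkb1, Relb and Ikbkb were not matched. A match was found in 2 of the 7 genes, Nfkb2 and Rel, beside 9.55% of all 27025 genes in the table. By windows it was 4 of 12 (33.3%), beside 8.46% of all windows. These 4 are not independent, since Nfkb2 windows overlap and the match at chr19:46305695-46305724 was counted in 2 of them. Nfkb2 held 2 matches in each of 2 of its 3 windows, as did 0.521% of all windows with 2 or more. The matches are shown with their flanks because Nfkb2 and Rel were the subunits whose windows held any. Each is written on the strand of the gene, with the matched letters in capitals.
Nfkb2, chr19:46304688-46304717, + strand: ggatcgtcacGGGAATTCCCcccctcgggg
Nfkb2, chr19:46304716-46304745, + strand: ggggccgaaaGGGGCTTTCCcggctggagc
Nfkb2, chr19:46305449-46305478, + strand: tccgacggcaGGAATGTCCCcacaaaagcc
Nfkb2, chr19:46305695-46305724, + strand: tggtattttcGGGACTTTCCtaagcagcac
Rel, chr11:23771042-23771071, - strand: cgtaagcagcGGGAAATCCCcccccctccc
The first 2 Nfkb2 matches began at positions -39 and -11 from the start of their transcript, and the Rel match at -92. A match of letters is a description and shows no binding, and the windows of Rela, Chuk, Ikbkg, Ikbke and Tbk1 only lacked these letters.

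**Figure D2:**
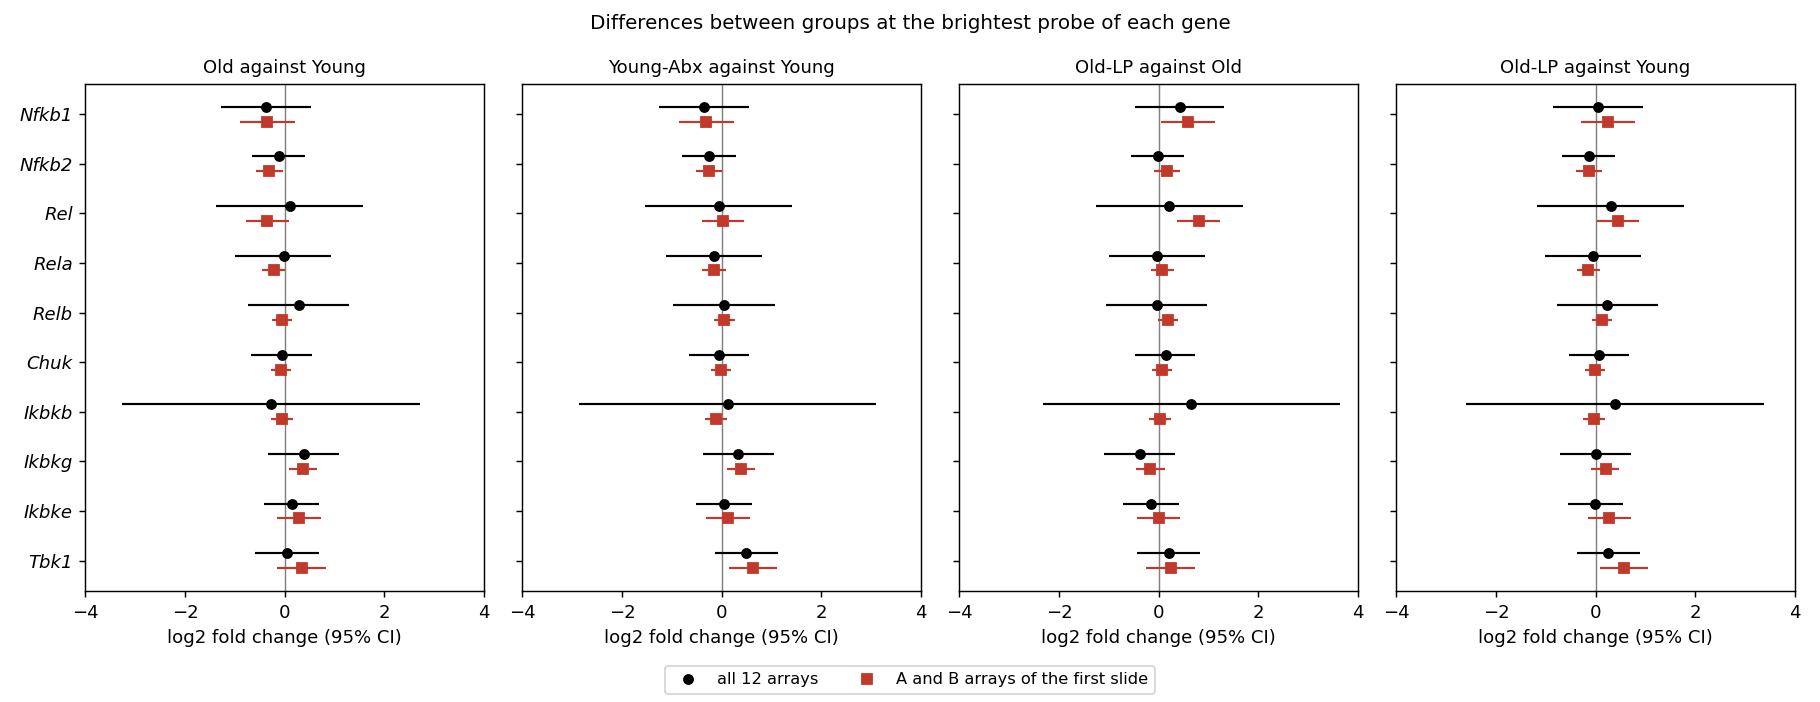
Log2 fold change (horizontal axis) with its 95% confidence interval for each gene at its brightest probe in 4 comparisons, over all 12 arrays (black circles) and on the A and B arrays of the first slide alone (red squares). The intervals over all arrays include 0 for every gene, are widest for Ikbkb (-3.26 to 2.71 in Old against Young DCs), and narrow on the first slide, where the largest value is 0.81 for Rel in Old-LP against Old DCs.

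Among the kinases, Chuk encodes IKKα, shared by both arms of the pathway. Its brightest probe (A_55_P2053077) was at 11.67, 11.62 and 12.08 in Young DCs, 11.62, 11.64 and 11.96 in Young-Abx DCs, 11.60, 11.54 and 12.05 in Old DCs and 11.62, 11.65 and 12.32 in Old-LP DCs. Its 8 values on the first slide lay within 11.54 to 11.67, the narrowest range of the 10 genes. The group means over all arrays spanned 0.13, less than the smallest SD of 0.20. The first-slide differences were -0.08 in Old against Young (95% CI -0.28 to 0.13), -0.02 in Young-Abx against Young (-0.22 to 0.19) and 0.06 in Old-LP against Old DCs (-0.14 to 0.27). Over all arrays they were -0.06, -0.05 and 0.14, and the C arrays gave -0.11 for the second pair and 0.28 for the third. A dim probe of Chuk, well above background on 2 of 3 arrays per group, had group means of 4.47 to 5.09.

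Ikbkb encodes IKKβ, the kinase that marks the IkB inhibitors in the canonical arm. Its brightest probe (A_55_P2801119) was at 10.53 and 10.43 on the A and B arrays of Young DCs, 10.34 and 10.39 of Young-Abx DCs, 10.44 and 10.39 of Old DCs and 10.43 and 10.45 of Old-LP DCs. The same probe was at 7.05, 7.65, 6.35 and 8.29 on the C arrays of these groups, and on the Old C array it was not well above background. The C array was thus lower than the mean of A and B in every group, by values from -4.06 in Old to -2.15 in Old-LP DCs. Of 31393 probes well above background on all A and B arrays, 1143 (3.64%) fell by 2.15 or more on the C array in every group, so Ikbkb belonged to a small share of the array. Ikbkb on the first slide differed by -0.06 in Old against Young DCs (-0.28 to 0.16), by -0.11 in Young-Abx against Young DCs (-0.33 to 0.11) and by 0.03 in Old-LP against Old DCs (-0.19 to 0.24). Over all arrays these became -0.27 (-3.26 to 2.71), 0.12 (-2.86 to 3.11) and 0.66 (-2.33 to 3.65), and the 0.66 came with 1.93 between the C arrays. The other probe of Ikbkb, dim on all arrays, gave 0.94 over all arrays and 0.17 on the first slide in Old-LP against Old DCs.

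Ikbkg encodes NEMO, the scaffold without which the canonical kinase complex does not form. Its brightest probe (A_51_P423404) was at 7.79, 8.05 and 8.68 in Young DCs, 8.28, 8.33 and 8.92 in Young-Abx DCs, 8.32, 8.25 and 9.09 in Old DCs and 8.08, 8.15 and 8.28 in Old-LP DCs. On the first slide the Old and Young-Abx arrays lay above both Young arrays. The Young-Abx C array lay above the Young C array of its slide, while the Old C array was on another slide. The mean was higher in Old than in Young DCs by 0.38 ± 0.32 (SE) and in Young-Abx than in Young DCs by 0.33 ± 0.32, and Old-LP against Old DCs gave -0.38 ± 0.32 (adjusted p = 1 for each, limma). The first slide gave 0.36 (0.08 to 0.65, adjusted p = 0.128), 0.38 (0.10 to 0.67, adjusted p = 0.134) and -0.17 (-0.45 to 0.12). Old and Young-Abx DCs were set against the same Young arrays, so the likeness of the first 2 values is not independent. The C arrays gave 0.24 in Young-Abx against Young and -0.81 in Old-LP against Old DCs. The next brightest Ikbkg probe (A_55_P2050652) gave -0.07, -0.03 and -0.04 over all arrays and 0.12, 0.22 and -0.02 on the first slide. Another probe (A_51_P380201) had the signs of the brightest, with 0.11, 0.30 and -0.33 over all arrays and 0.19, 0.22 and -0.13 on the first slide, and the dimmest (A_52_P507853) gave 0.13, 0.10 and -0.02 over all arrays.

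Ikbke encodes IKKε, an LPS-inducible relative of the canonical kinases. Its brightest probe (A_51_P222280) was at 9.89, 10.33 and 10.69 in Young DCs, 10.21, 10.28 and 10.57 in Young-Abx DCs, 10.26, 10.54 and 10.56 in Old DCs and 10.35, 10.44 and 10.11 in Old-LP DCs. The 4 group means lay within 0.15, below each group's SD of 0.17 to 0.40. Differences over all arrays were 0.14 in Old against Young (95% CI -0.41 to 0.70), 0.05 in Young-Abx against Young (-0.51 to 0.61) and -0.15 in Old-LP against Old DCs (-0.71 to 0.41). The first slide gave 0.29 (-0.15 to 0.73), 0.13 (-0.31 to 0.57) and 0.00 (-0.44 to 0.44), and the C arrays -0.12 for the second pair and -0.44 for the third. Its dim second probe (A_55_P2940916) gave -0.67 in Young-Abx against Young DCs (-1.35 to 0.01, unadjusted p = 0.0536, adjusted p = 1, limma), the smallest unadjusted p of any of the 20 probes in the 4 comparisons in the fit to all 12 arrays with group means alone.

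Tbk1 encodes the kinase that, with IKKε, phosphorylates IRF3. Its single probe (A_52_P532029) was at 9.31, 9.34 and 10.17 in Young DCs, 9.84, 10.07 and 10.40 in Young-Abx DCs, 9.93, 9.39 and 9.65 in Old DCs and 9.81, 9.99 and 9.79 in Old-LP DCs. On the first slide both Young-Abx arrays lay above both Young arrays. The Young-Abx C array lay above the Young C array of its slide, though the groups overlapped through the Young C array. The difference was 0.50 (95% CI -0.14 to 1.14, adjusted p = 1, limma) over all arrays, 0.63 on the first slide (0.14 to 1.12, adjusted p = 0.146) and 0.22 between the C arrays. When limma gave each array a weight by its quality, Tbk1 was called, at 0.62 with an adjusted p of 0.0253, the only 1 of the 20 probes to be called in that fit in the 4 comparisons. That fit called 8.57% of all probes in Young-Abx against Young DCs, so 1 of 20 is no more than the rate of the array. Old-LP against Young DCs gave 0.25 over all arrays (-0.38 to 0.89) and 0.57 on the first slide (0.08 to 1.06, adjusted p = 0.418).

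For the first slide as a whole, an unadjusted limma p of at most 0.05 was reached by 3 of the 20 probes in Old against Young DCs, 5 in Young-Abx against Young, 4 in Old-LP against Old and 2 in Old-LP against Young DCs. All probes reached it at 22.1%, 20.2%, 21.1% and 10.6%, so the genes of this family passed about as often as the array did. Calls after adjustment on that slide were 0, 0, 1 (Rel) and 0 of 20, where all probes gave 9.17%, 6.14%, 8.24% and 0.0389%. The 10 genes took 3 values above 0 and 7 below in Old against Young DCs there, 5 and 5 in Young-Abx against Young, 8 and 1 in Old-LP against Old (Ikbke at 0.00) and 6 and 4 in Old-LP against Young DCs. Comparisons with a group in common share its arrays, and the directions are described without a test.

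**Figure D3:**
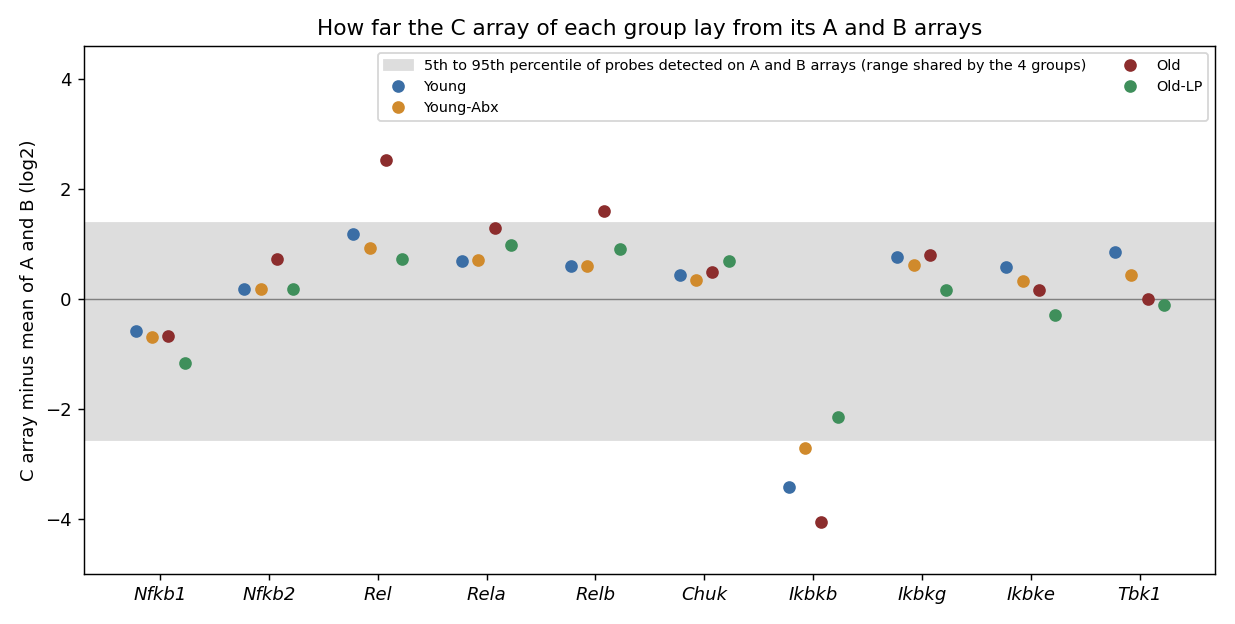
Log2 value of each group's C array minus the mean of its A and B arrays (vertical axis) for the 10 genes at their brightest probes, coloured by group. The grey band is the part of the 5th to 95th percentile ranges shared by the 4 groups (-2.57 to 1.38). It covers probes well above background on all A and B arrays. The range of the Old group alone was wider, from -3.52 to 1.93. Nfkb2, Rel, Rela, Relb, Chuk and Ikbkg lie above 0 in every group, Nfkb1 and Ikbkb below, and the Old C array lies farthest out for Rel (2.52), Rela (1.29), Relb (1.60) and Ikbkb (-4.06).

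The distance of the C arrays was not of the same sign for all genes. At the brightest probes, Rel was higher on the C array by 0.73 to 2.52, Rela by 0.69 to 1.29, Relb by 0.60 to 1.60 and Chuk by 0.34 to 0.69. Over all probes the median of this distance was 0.08 to 0.10 and its median size 0.68 to 0.96. Rel and Rela were thus each farther out than a typical probe in 3 of the 4 groups and Ikbkb in all 4. The median size was 0.73 to 1.03 over probes well above background on all A and B arrays. Beside those probes, Rela was farther out in Old (1.29 against 1.03) and Old-LP DCs (0.98 against 0.76). It was not in Young (0.69 against 0.83) or Young-Abx DCs (0.70 against 0.73). The Old C array also stood out for A20 (Tnfaip3), the enzyme that NF-kB induces to end its own signalling, with 13.94 against 11.56 and 11.54 on Old A and B, and for the neutrophil chemokine Cxcl2, with 10.74 against 8.56 and 8.31. What set these arrays apart was not tested.

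The rest of the pathway was described through 70 genes in 6 lists, each gene at its brightest probe. None of the 70 was called over all arrays in any of the 4 comparisons, and an unadjusted limma p of at most 0.05 was reached by 2 (Azi2 and Cxcl2) in Old against Young, 1 (Azi2) in Young-Abx against Young, 1 (Azi2) in Old-LP against Old and 3 (Cxcl1, Cxcl2 and Ptgs2) in Old-LP against Young DCs, as did 6.05%, 3.9%, 5.87% and 1.13% of all probes. With the slide as a block, 1 was called in Old against Young (Vcam1, an adhesion molecule, -0.91, adjusted p = 0.0437) and the same gene in Old-LP against Old DCs (0.82, adjusted p = 0.0377). The slide block called 2.7% of all probes in the former and 3.29% in the latter comparison. On the first slide alone 11, 8, 11 and 2 of the 70 were called, where all probes gave 9.17%, 6.14%, 8.24% and 0.0389%, and nothing particular to the lists is read from these counts. The lists below give the highest and lowest log2 fold change over all arrays among genes detected well above background throughout at least 1 of the groups.

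The receptor and adaptor list holds 17 genes that carry the LPS signal from the cell surface to the kinases. In Old against Young DCs it ran from Traf6, the ubiquitin ligase that activates the kinases (-0.53), to Cd14, the LPS co-receptor (0.69), and 3 genes were above 0 and 13 below (median -0.15). In Young-Abx against Young DCs it ran from the adaptor Myd88 (-0.54) to Cd14 (0.58), with a median of 0.01. Cd14 was at 12.97, 12.94 and 14.32 in Young DCs, 13.61, 13.74 and 14.61 in Young-Abx, 13.77, 13.59 and 14.93 in Old and 13.24, 13.17 and 14.31 in Old-LP DCs. On the first slide the Young-Abx and Old arrays lay above both Young arrays. The Young-Abx C array lay above the Young C array of its slide, while the Old C array was on another slide. Cd14 was called on the first slide in Old (0.73, adjusted p = 0.0116, limma) and in Young-Abx DCs (0.72, adjusted p = 0.0174). In Old-LP against Old DCs the list ran from Ly96, the partner of the receptor (-0.69), to the receptor Tlr4 itself (0.86), which was 0.03 on the first slide. Tlr4, like Ikbkb, was low on the C arrays (5.57, 5.90, 4.06 and 6.60) beside 9.70 to 9.93 on A and B. In Old-LP against Young DCs it ran from Ly96 (-0.41) to Tlr4 (0.26).

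The IkB family list holds 6 genes whose proteins bind NF-kB, not all as inhibitors. Its range in Old against Young DCs was from Bcl3 (-0.06) to Nfkbiz (0.85, and 0.16 on the first slide), and in Young-Abx against Young DCs from Nfkbib (-0.12) to Nfkbiz (0.31). Nfkbiz encodes a nuclear IkB that co-activates a set of late LPS genes. In Old-LP against Old DCs the range was from Nfkbie (-0.58, and -0.08 on the first slide) to Bcl3 (0.27), and in Old-LP against Young DCs from Nfkbie (-0.43) to Nfkbiz (0.96). The medians were 0.23, 0.14, 0.11 and 0.22, beside -0.02 to 0.01 over all probes, with none of the 6 genes past an unadjusted p of 0.05.

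The list of ubiquitin editing and feedback holds 11 genes, among them A20, its partners and deubiquitinases that damp the signal and the linear ubiquitin ligase genes Rnf31, Rbck1 and Sharpin, whose complex promotes it. It ran in Old against Young DCs from Tnip3, an A20 partner (-0.48), to Tnfaip3 (0.70, and -0.10 on the first slide). Tnip3 on the first slide was called lower in Old DCs (-0.73, adjusted p = 0.00678, limma). In Young-Abx against Young DCs the list ran from the deubiquitinase Otulin (-0.34) to Tnfaip3 (0.21), in Old-LP against Old DCs from Tnip2 (-0.29) to Tnip3 (0.55), and in Old-LP against Young DCs from Otud7b (-0.32) to Tnfaip3 (0.71). The medians were 0.01, -0.14, 0.01 and -0.05.

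The non-canonical list holds 8 genes around the kinase NIK (Map3k14), which activates IKKα. The range in Old against Young DCs was from Traf2 (-0.53) to Birc3 (0.21), and in Young-Abx against Young DCs from Map3k14 (-0.25) to Birc3 (0.11). Traf2 and Birc3 belong to the complex that keeps NIK low in resting cells. In Old-LP against Old DCs it ran from Birc3 (-0.04) to the lymphotoxin receptor Ltbr (0.99, and -0.05 on the first slide), and in Old-LP against Young DCs from Map3k14 (-0.09) to Ltbr (0.46). Ltbr was at 5.99, 5.96, 4.71 and 7.76 on the C arrays and at 10.51 to 10.79 on the others. None of the 8 genes was called on the first slide in any of the 4 comparisons.

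The list of TBK1 and IKKε partners holds 8 genes. The ends in Old against Young DCs were Tbkbp1, an adaptor of TBK1 (-0.79), and Irf7 (0.13), and in Young-Abx against Young DCs Azi2 (-0.51) and Optn (0.78, and 0.30 on the first slide). In Old-LP against Old DCs it ran from Irf7 (-0.26) to Tbkbp1 (0.86), and in Old-LP against Young DCs from Azi2 (-0.17) to Tank (0.35). Azi2 encodes NAP1, an adaptor that links TBK1 and IKKε to upstream receptors. It was at 9.08, 8.93 and 8.76 in Young DCs, 8.52, 8.38 and 8.35 in Young-Abx, 8.31, 8.46 and 8.05 in Old and 8.73, 8.76 and 8.78 in Old-LP DCs. All 3 Young-Abx and all 3 Old arrays lay below all 3 Young arrays, and all 3 Old-LP arrays lay above all 3 Old arrays. Groups did not overlap for 9.87%, 9.66% and 9.38% of all probes in these comparisons. The comparisons share the Young or the Old arrays and are not independent, and the Old and Young C arrays were on different slides. Its log2 fold changes were -0.65 in Old against Young (unadjusted p = 0.00795, adjusted p = 0.349, limma), -0.51 in Young-Abx against Young (0.0284 and 1) and 0.48 in Old-LP against Old DCs (0.0346 and 0.767). The C arrays kept the sign of the first slide for Young-Abx against Young and for Old-LP against Old DCs, and none of the 3 comparisons passed the adjustment over all probes. Azi2 was called on the first slide in Old (-0.62, adjusted p = 0.0219) and in Young-Abx against Young DCs (-0.55, adjusted p = 0.0428), and not in Old-LP against Old DCs (0.36, adjusted p = 0.120).

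The list of 20 NF-kB target genes holds cytokines, chemokines, enzymes and adhesion molecules. In Old against Young DCs it ran from Cxcl10, a chemokine for T cells (-0.99), to Cxcl2 (2.00), and in Young-Abx against Young DCs from Cxcl10 (-0.86) to the prostaglandin synthase Ptgs2 (1.13). In Old-LP against Old DCs it ran from Il1b (-0.35) to Cxcl10 (1.30), and in Old-LP against Young DCs from the nitric oxide synthase Nos2 (-0.27) to the neutrophil chemokine Cxcl1 (2.14). The medians were 0.00, -0.16, 0.20 and 0.14. Cxcl10 was at 9.66, 9.71 and 8.13 in Young DCs, 8.81, 8.68 and 7.44 in Young-Abx, 7.73, 7.65 and 9.16 in Old and 9.81, 9.89 and 8.73 in Old-LP DCs. On the first slide it was called lower in Old than in Young DCs (-2.00, adjusted p = 0.000287, limma) and higher in Old-LP than in Old DCs (2.16, adjusted p = 0.000324). By contrast, the Old C array was above the Old-LP C array of its slide. It was also above the Young and Young-Abx C arrays, which were on another slide. Cxcl1 was at 9.78, 9.61 and 7.31 in Old-LP DCs and at 7.19, 7.19 and 9.08 in Old DCs, called higher in Old-LP DCs on the first slide (2.51, adjusted p = 0.00028) and lower there on the C array. On the first slide 6 of the 20 target genes were called in Old against Young DCs, beside 9.17% of all probes. Il1b (0.54), Sod2 (0.69) and Cxcl2 (0.97) were higher, and Ccl3 (-0.62), Ccl4 (-1.27) and Cxcl10 (-2.00) lower. Of the 20 genes, 4 were above 0 there (median -0.26). Over all arrays Ccl3 was at -0.10 and Ccl4 at -0.66. None of the 10 subunit and kinase genes was called on that slide. Their 20 probes would hold few calls at the rate of the array, so no contrast with the target genes is read.

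**Figure D4:**
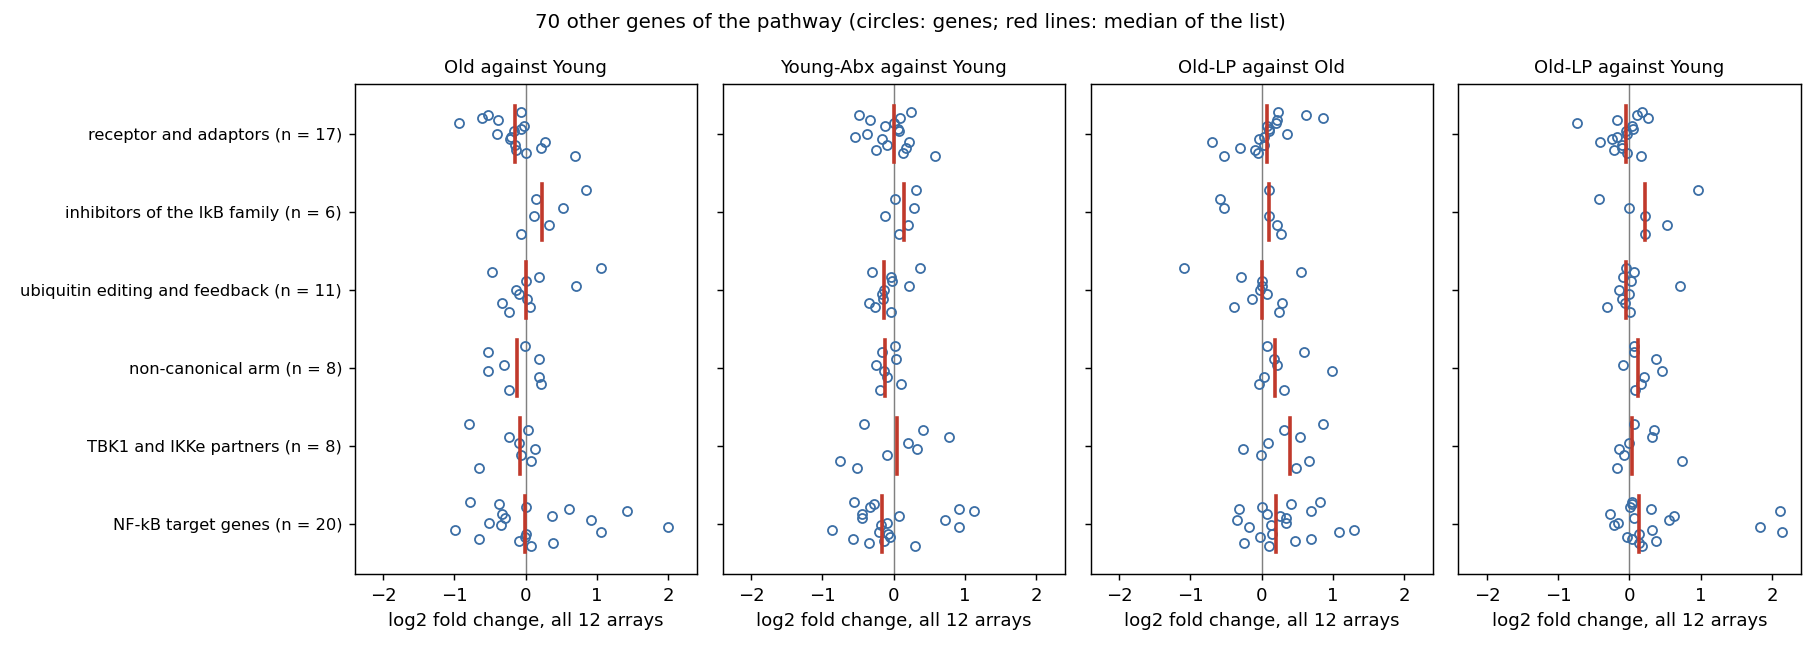
Log2 fold change over all 12 arrays (horizontal axis) of 70 other genes of the pathway in 6 lists for 4 comparisons, with a circle per gene and a red line at the median of each list. Medians lie between -0.16 and 0.40, and the target genes spread most, from -0.99 for Cxcl10 to 2.00 for Cxcl2 in Old against Young DCs.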

How the data were processed

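Labelled RNA of 12 samples was hybridised to Agilent arrays. As deposited, spot intensity came straight from Feature Extraction (version 12.1.1.1 per the file headers, 10.5 in the methods), corrected for background but not normalized between arrays. The authors also deposited a table of log2 values for 46302 probes, quantile normalized, used as an alternative. Here, 1068 outlier spot readings were set to missing, log2 intensities were quantile normalized, and repeated spots were averaged, leaving 56605 probes. Names came from RefSeq accessions (35405 probes, 24232 symbols). The symbol table is for GRCm38.p6 and the array header names mm9, so no gene positions were taken from it for the probes. limma 3.58.1 in R 4.3.3 (lmFit, eBayes) fitted a mean per group to all 12 arrays, and all p are two-sided. The number of arrays limits the precision, and intervals are at 95%. Each gene was described at its brightest probe (highest mean over the arrays), and all other genes by lists. From each list, called genes and the highest and lowest log2 fold change per comparison were named. Other list genes were named after their values were seen. The members and lists were chosen with earlier results of these data known. Steps were tested on simulated data.

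Deviations from group means correlated at 0.415 to 0.711 between arrays of the same letter in different groups. Across groups they correlated at 0.449 to 0.570 between A and B, and at -0.659 to -0.466 between C and the others. Deviations within a group cancel out, so a distant C array fixes these signs. The values therefore do not show whether arrays of the same letter belong together. Letter and slide were tried as blocks. Other alternatives were a 75th percentile shift, normexp correction (offset 50, on the median signal, since the planned mean signal was not used here), the deposited log2 table, a filter on dim probes, outlier spots kept, the first slide alone, the compared groups alone, array weights, an intensity trend, unadjusted p, and each array left out.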

Additional observations from a re-analysis of the deposited data

How the results depend on the processing

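No member probe was called in any of the 4 comparisons under the 75th percentile shift, normexp correction, the deposited log2 table, the filter on dim probes (16 of 20 passed), outlier spots kept, the slide block, the replicate block (0 in each), the compared groups alone, the intensity trend, unadjusted p with the fold threshold, or with any array left out (0 in each). The exceptions were array weights, which called 1 probe in Young-Abx against Young DCs (Tbk1), and the first slide alone, which called 1 in Old-LP against Old DCs (Rel), where these settings called 4851 and 4663 of 56605 probes. Over all these settings, up to 3, 7, 4 and 2 member probes had an unadjusted p of at most 0.05 in the 4 comparisons, the 7 with array weights and the others on the first slide, where 22.1%, 22.1%, 21.1% and 10.6% of all probes did. Of 240 values of log2 fold change per comparison (10 genes at 24 settings), 27, 23, 24 and 30 had another sign than over all arrays, none where the fold change exceeded its standard error. Rel ranged from -0.33 to 1.05 in Old-LP against Old DCs and Ikbkb from -1.42 to 1.08 in Old against Young DCs, whereas Ikbkg stayed between 0.11 and 0.63 in the latter and Tbk1 between 0.35 and 0.78 in Young-Abx against Young DCs.

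Counts over all probes moved far more. In Old against Young DCs, 351 probes were called over all arrays, 1528 with the slide block, 1233 with the replicate block, 5188 on the first slide, 5016 with array weights and 19 with the compared groups alone. The 75th percentile shift moved the median of all probes to 0.15, -0.14 and -0.13 in the first 3 comparisons and to 0.03 in Old-LP against Young DCs, and the medians of the 10 genes to 0.02, -0.08, 0.07 and 0.03. The causes were not tested. Signal on the dim C arrays limits the dimmest probes, of which 4 of 20 were below the filter.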
